A study of Mus musculus with 2 samples.

Results

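The genes described here are the Wnt ligands, their receptors and their secreted or membrane-bound inhibitors, measured by total RNA sequencing in the newborn mouse thymus. The member rule goes by symbol: all protein-coding genes named Wnt, Fzd, Dkk, Sfrp or Rspo with a number, plus Frzb, Lrp5, Lrp6, Lgr4, Lgr5, Lgr6, Wif1 and Kremen1. The rule gave 49 genes of the 21474 protein-coding genes measured, and all 49 were present in the gene tables. By role they were 19 Wnt ligands, 4 R-spondins, 10 Frizzled receptors, 2 Lrp co-receptors, 3 Lgr receptors and 11 inhibitors.

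The study holds 1 group: whole thymus of mice of strain B6NCrl on postnatal day 0, with no treatment named, both lobes of each pup. One library was made for each of 2 pups of 1 pregnant female, called replicate 1 and replicate 2, and the labels give both under 1 donor identifier. The labels record no sex and no second tissue, so the data allow a description of levels and of how far the pups differed, and no test between conditions. The libraries held 39045711 and 41576378 expected counts, which are estimated read numbers per gene. In this whole tissue, fewer cells of a type and less RNA per cell cannot be told apart.

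Wnt proteins are secreted lipid-modified ligands that bind a Frizzled receptor together with an Lrp5 or Lrp6 co-receptor, which stabilises beta-catenin and lets it act with TCF and LEF factors on target genes. R-spondins, through Lgr receptors, keep Frizzleds at the cell surface, whereas Sfrp proteins, Frzb and Wif1 capture the ligands and Dkk proteins act with Kremen receptors on Lrp5 and Lrp6. In the thymus the pathway is known for roles in both thymocyte development and the thymic epithelium. The tissue label fits the levels of its defining markers. The median was 343 TPM (defined below) over 6 thymocyte genes and 311 TPM over 6 cortical epithelial genes. Over all protein-coding genes it was 2.87 TPM. Detection of 6 of 6 genes in both lists says less, since all markers of mesenchyme, endothelium and macrophages were detected too.

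A gene was counted as detected when its TPM, a length-scaled relative abundance, was at least 1 in both libraries. By that rule 19 of 49 members were detected (38.8%), while 57.3% of all protein-coding genes were. The median level over the members was 0.625 TPM, against 2.87 TPM over all protein-coding genes, and 21 members had a mean below 0.5 TPM. Only 5 members, Kremen1, Lrp6, Wnt4, Fzd6 and Sfrp1, exceeded 5 TPM in both pups. The members together summed to 120.7 TPM in replicate 1 and 108.7 TPM in replicate 2. Close to the threshold, Wnt9a had 1.03 and 0.99 TPM and was not counted as detected, while Fzd4 at 1.47 and 1.30 TPM was.

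**Figure D1:**
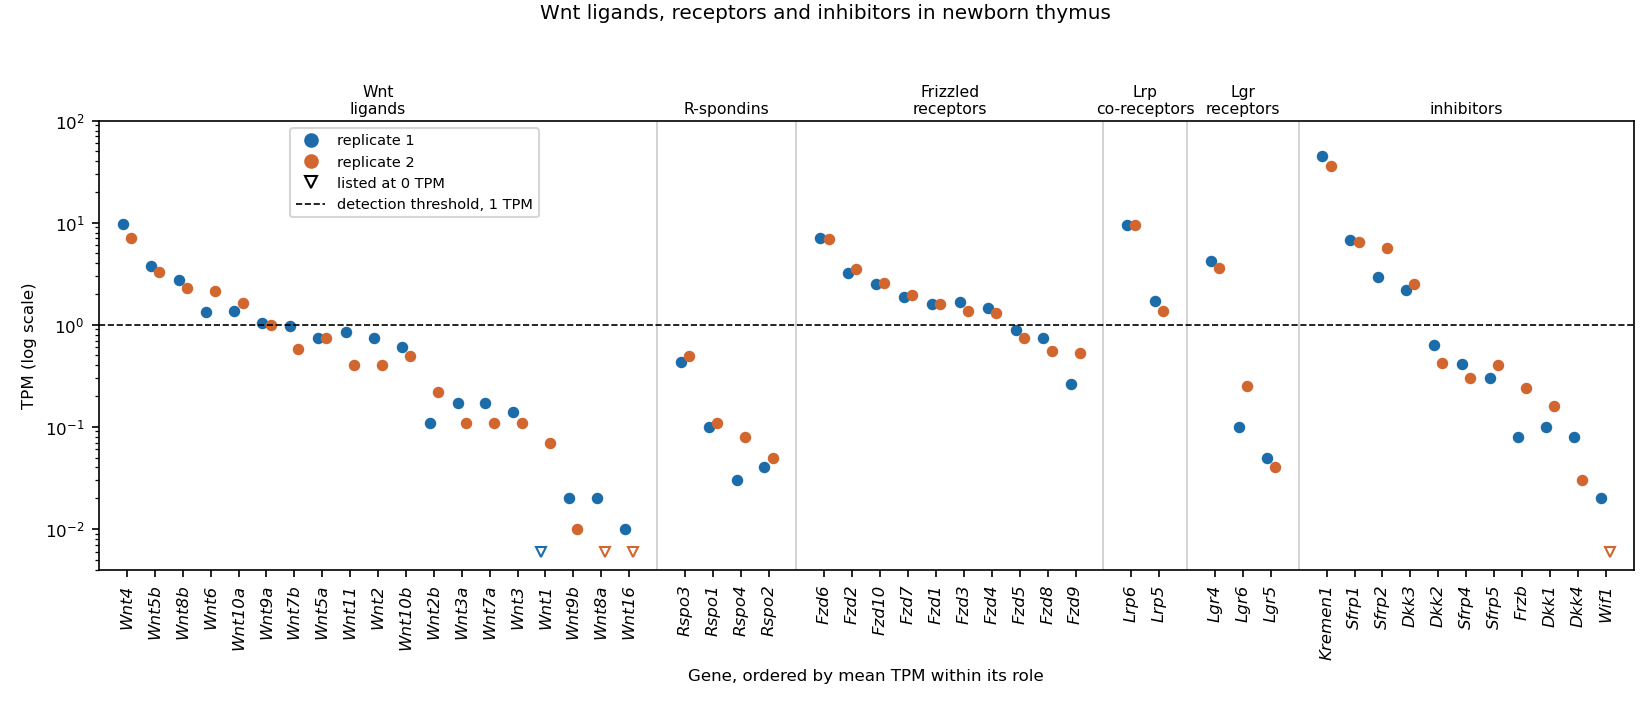
TPM of all 49 genes (log axis) in replicate 1 and replicate 2, grouped by role and ordered by mean level; open triangles, drawn at the foot of the axis, mark genes listed at 0. Kremen1 stands above all other members at 45.2 and 35.6 TPM, and 5 Wnt ligands and 7 Frizzled receptors lie above the dashed line at 1 TPM in both pups.

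Among the ligands, 5 of 19 were detected, at a median of 0.575 TPM over all 19. Wnt4, a ligand of thymic epithelium that is known to promote Foxn1 expression there, was the most abundant. The gene lies on chromosome 4 at 137277489 to 137299726 (GRCm38, plus strand). Its level was 9.64 TPM in replicate 1 against 7.08 in replicate 2 (1164 and 922 counts), and it took 36.9% ± 3.67 (SD, n = 2) of the summed TPM of all Wnt ligands. Relative to the bulk of genes the pup with more Wnt4 was replicate 1, but scaling to spike-in totals turned the log2 difference (replicate 2 over replicate 1) from -0.41 to 0.29. The authors' intervals for its TPM, 8.93 to 10.0 and 6.51 to 7.41, did not overlap. Even this ligand ranked only 8316th of 21474 protein-coding genes by mean TPM.

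The other detected ligands were Wnt5b, Wnt8b, Wnt6 and Wnt10a. Wnt5b, which acts mainly outside the beta-catenin branch, had 3.79 and 3.28 TPM (243 and 232 counts). Wnt8b, best known from the developing forebrain, had 2.73 and 2.30 TPM (264 and 240 counts), and no annotated gene overlaps it. Counts per gene do not show where in Wnt8b those reads lie. Wnt6 had 1.33 and 2.15 TPM from 63 and 90 counts, and Wnt10a had 1.35 and 1.62 TPM from 94 and 102 counts. Wnt6 passed the threshold only with a transcript annotated as a retained intron, since its coding transcript Wnt6-201 had 0.90 and 0.92 TPM. Wnt5b and Wnt8b were slightly higher in replicate 1 and the other 2 in replicate 2, each with overlapping intervals.

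Another 6 ligands had means of at least 0.5 TPM without reaching the threshold in both pups. They were Wnt9a, Wnt7b (0.97 and 0.58 TPM), the polarity ligand Wnt5a (0.74 in both), Wnt11 (0.85 and 0.40), Wnt2 (0.75 and 0.40) and Wnt10b (0.61 and 0.49). For Wnt5a the coding transcripts Wnt5a-202 (0.27 and 0.29 TPM) and Wnt5a-201 (0.21 and 0.14) made up only part of that level. The rest was assigned to short processed transcripts. In replicate 2 all Wnt11 TPM was assigned to transcripts annotated for nonsense-mediated decay. The remaining 8 ligands had means between 0.005 and 0.165 TPM. Among the 8 were the classical activators of beta-catenin signalling Wnt1 (0 and 5 counts), Wnt3a (13 and 9 counts) and Wnt3 (12 and 10 counts). Wnt8a, Wnt16 and Wnt9b had at most 3 counts in either library, within what a count of 0 allows. Wnt16, listed at 0.01 and 0 TPM, had authors' intervals of 0.0253 to 0.846 and 0.0141 to 0.774 TPM, so its level is uncertain.

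Some ligand genes sit side by side in the genome. In GRCm38, Wnt6 and Wnt10a lie 6.19 kb apart on chromosome 1 and both were detected at gene level. Wnt9a and Wnt3a lie 16.2 kb apart on chromosome 11 in opposite orientation, at means of 1.01 and 0.14 TPM. Wnt10b and Wnt1, 11.7 kb apart on chromosome 15, had means of 0.55 and 0.035 TPM. Wnt9b and Wnt3, 24.3 kb apart on chromosome 11, were both below 0.2 TPM. These are the 4 pairs of neighbouring ligands with less than 100 kb between them.

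The sequences before the start sites of 3 detected ligands are shown because the ligands differ in their start regions and, for Wnt5b, because reads were divided over several starts. They are the bases before the first annotated start, taken from a table of RefSeq start regions (GRCm38.p6) in which 31 of the 49 members were matched. Capitals mark matches on either strand to the GC box GGGCGG or to the TCF and LEF core CTTTGNT, and overlapping matches run together.
Wnt4, chr4:137277385-137277488, plus strand: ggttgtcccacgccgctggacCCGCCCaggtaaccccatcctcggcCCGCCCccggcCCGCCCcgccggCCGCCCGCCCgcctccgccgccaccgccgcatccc
Wnt8b, chr19:44493322-44493471, plus strand: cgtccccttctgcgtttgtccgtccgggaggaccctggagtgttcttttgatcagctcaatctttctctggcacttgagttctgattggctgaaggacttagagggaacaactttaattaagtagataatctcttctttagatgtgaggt
Wnt5b, start 1, chr6:119544348-119544497, minus strand: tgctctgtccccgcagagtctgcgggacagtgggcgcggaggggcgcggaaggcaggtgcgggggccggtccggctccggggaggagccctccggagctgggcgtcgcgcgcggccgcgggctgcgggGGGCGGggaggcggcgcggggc
Wnt5b, start 2, chr6:119467212-119467361, minus strand: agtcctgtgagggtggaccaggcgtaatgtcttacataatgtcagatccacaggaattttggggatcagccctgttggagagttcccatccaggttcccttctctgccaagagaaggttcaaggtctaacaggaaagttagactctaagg
Wnt5b, start 3, chr6:119449387-119449536, minus strand: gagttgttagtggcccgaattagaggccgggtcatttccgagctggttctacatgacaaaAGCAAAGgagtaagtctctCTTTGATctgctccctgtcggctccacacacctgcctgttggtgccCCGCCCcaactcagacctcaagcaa

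The Wnt4 stretch of 104 bases was 83.7% G and C and held 5 GC boxes, whereas the Wnt8b stretch of 150 bases held none and was 45.3% G and C. Of all 32851 start regions in the table, 28.6% held a GC box and 9.36% a TCF and LEF core in the 150 bases before the start. The stretch shown for Wnt4 is shorter and also differs in position. It ends before the earliest annotated start at 137277489, while the RefSeq start of Wnt4 lies downstream at 137277635. For Wnt5b (chromosome 6, 119432531 to 119544347, minus strand) start region 1 had 23 CpG dinucleotides, region 2 had 1 and region 3 had 5. Transcripts from region 1 (Wnt5b-203 and Wnt5b-204, whose starts are 29 bases apart) took 71.1% of Wnt5b TPM in replicate 1 and, as 33.2% and 52.3%, most of it in replicate 2. Wnt5b-202, from region 2, took 28.9% and 14.5%. No reads were assigned to start 3, the one with 2 matches to the TCF and LEF core. These shares are the authors' estimates over whole transcripts and no direct measurement of start sites.

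R-spondins were near the limit of detection. None of the 4 reached 1 TPM, and their sum was 0.60 TPM in replicate 1 and 0.73 TPM in replicate 2. Rspo3 was the highest at 0.43 and 0.49 TPM (29 and 36 counts), and Rspo1, Rspo2 and Rspo4 had between 2 and 6 counts in each library. Their receptors were unequal. Lgr4 had 4.17 and 3.58 TPM (596 and 561 counts), while Lgr6 had 0.10 and 0.25 TPM and Lgr5, a marker of epithelial stem cells in the gut, had 0.05 and 0.04 TPM. For Lgr5 the authors' own intervals (0.114 to 0.552 and 0.0956 to 0.501 TPM) lay above the deposited values, so that level is uncertain.

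Of the 10 Frizzled receptors, which hold the Wnt binding site, 7 were detected, and the median over all 10 was 1.55 TPM. Fzd6, which is known mainly for planar polarity, led with 7.12 and 6.90 TPM from 836 and 874 counts. Fzd2 followed at 3.19 and 3.55 TPM, Fzd10 at 2.53 and 2.54, and Fzd7 at 1.86 and 1.94. Fzd1 (1.60 and 1.59 TPM), Fzd3 (1.66 and 1.36) and Fzd4 (1.47 and 1.30) completed the detected set. Their authors' intervals overlapped one another in both pups, so the order of these 3 is not resolved.

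Fzd5, Fzd8 and Fzd9 stayed below 1 TPM in both pups. Fzd5 had 0.89 and 0.75 TPM, Fzd8 had 0.75 and 0.55, and Fzd9 had 0.26 and 0.53. Fzd6 was the single Frizzled above 5 TPM. The summed TPM of the Frizzleds was 21.33 and 21.01, beside 24.4 and 20.7 TPM for all Wnt ligands. The ratio of receptors to ligands was therefore 0.945 ± 0.1017 (SD, n = 2).

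Of the co-receptors, Lrp6 was far above Lrp5. Lrp6 had 9.53 and 9.40 TPM from 2410 and 2444 counts, so only Kremen1 exceeded it in replicate 2, and only Kremen1 and Wnt4 in replicate 1. Lrp5 had 1.70 and 1.36 TPM from 200 and 196 counts. The intervals of the 2 genes, 8.87 to 10.2 against 1.42 to 2.03 TPM in replicate 1, were well apart in both pups.

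The inhibitors were led by a single gene. Kremen1, a transmembrane receptor that acts with Dkk proteins to remove Lrp5 and Lrp6 from the surface and whose loss is known to disturb thymic architecture in mice, lies on chromosome 11 at 5191552 to 5261558 (minus strand). Its level was 45.2 TPM in replicate 1 and 35.6 in replicate 2. These values came from 6241 and 5326 counts, and replicate 1 was the higher, but with spike-in totals the log2 difference (replicate 2 over replicate 1) turned from -0.30 to 0.40. Kremen1 held 72.9% ± 5.76 (SD, n = 2) of the summed TPM of the 11 inhibitors and ranked 3598th of 21474 protein-coding genes. The median inhibitor had only 0.355 TPM. The ratio of summed inhibitors to summed ligands was 2.45 ± 0.0680 (SD, n = 2) with Kremen1 and 0.667 ± 0.160 without it.

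Of the Dkk proteins, the partners of Kremen1, only Dkk3 was detected, at 2.18 and 2.51 TPM. Dkk3 is a divergent family member. Dkk2 had 0.63 and 0.42 TPM, Dkk1 had 0.10 and 0.16, and Dkk4 had 3 and 1 counts. The abundant Kremen1 transcript was thus measured beside detected Dkk3 and low levels of Dkk1, Dkk2 and Dkk4 in both pups.

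The ligand-binding inhibitors were represented by Sfrp1 and Sfrp2. Sfrp1 had 6.80 and 6.41 TPM from 857 and 872 counts. Sfrp2, on chromosome 3 at 83766321 to 83774316 (plus strand), had 2.94 and 5.65 TPM. The other ligand-binding inhibitors were low: Sfrp4 had 0.41 and 0.30 TPM, Sfrp5 had 0.30 and 0.40, and Frzb had 0.08 and 0.24. Wif1 had 1 and 0 counts, where a count of 0 allows up to 3, or 0.0722 CPM (counts scaled to library size) in replicate 2. Wnt1, Wnt8a and Wif1 were each listed at 0 TPM in 1 library where the authors' interval began above 0, at 0.00499 TPM for Wif1 and lower for the other two.

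The pups were close for most members. Among the 25 members whose expected count averaged 50 or more, the median absolute difference was 1.12-fold for members and 1.10-fold for all 14155 genes at that level. A member was counted as differing when its scaled counts were over 1.5-fold apart, which is a size and no test, since each pup has 1 library. One of the 25 was higher in replicate 2, where 1.12% of all genes were, and 1 was higher in replicate 1, where 3.66% were. The authors' intervals did not overlap between pups for 4 of the 25 (Kremen1, Wnt4, Wnt7b and Sfrp2), against 27.4% of all genes.

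**Figure D2:**
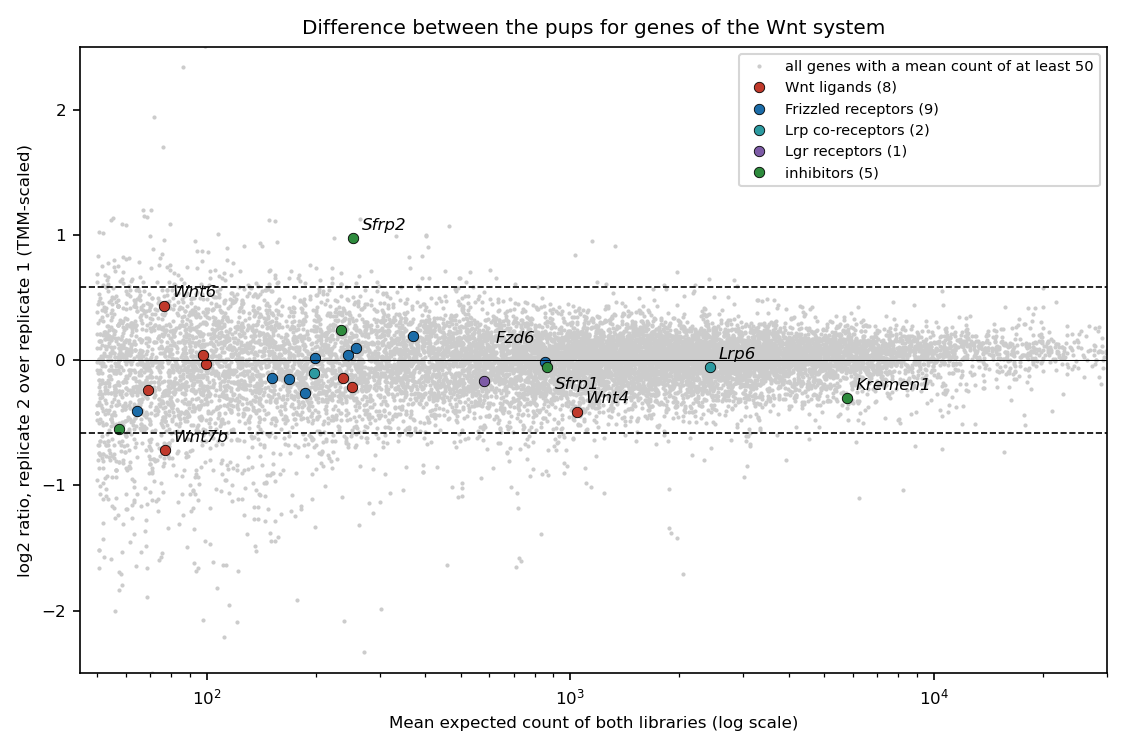
Log2 ratio of scaled counts, replicate 2 over replicate 1, against mean expected count (log axis) for the 25 members averaging 50 or more counts, coloured by role, over all other genes in grey; dashed lines mark 1.5-fold, and 20 genes beyond a log2 ratio of 2.5 in either direction and 115 above 30000 counts lie outside the axes. Sfrp2 lies above the upper line at 0.97 and Wnt7b below the lower line at -0.72.

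Sfrp2 was the member higher in replicate 2. Its counts were 164.91 and 342.12, a ratio of 1.96 with an interval for counting error alone of 1.63 to 2.38 (95%, exact binomial). Its counts were not whole. Gm26771 is an antisense gene that overlaps Sfrp2 on the opposite strand. The counts of both genes together summed to 219 and 380, so reads were divided between them. For that sum the ratio was 1.65, so the difference remained over 1.5-fold. Gm26771 itself had 54.09 and 37.88 counts and was 1.49-fold higher in replicate 1. Sfrp2 is a gene typical of fibroblasts, and its start region is shown because of this difference.
Sfrp2, chr3:83766171-83766320, plus strand: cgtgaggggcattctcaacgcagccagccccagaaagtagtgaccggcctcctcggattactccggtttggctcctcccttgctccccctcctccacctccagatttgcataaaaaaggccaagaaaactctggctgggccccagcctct
This stretch of 150 bases before the start held no GC box, no TATA box (TATAAA) and no TCF and LEF core.

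Some markers of other cells also differed between the libraries. Of 8 mesenchyme genes, all 8 had log2 ratios above 0 in scaled counts and 0 were over 1.5-fold apart, with a median log2 difference of 0.20 and a summed level of 344 and 391.8 TPM. Of 5 genes of smooth muscle and vessel wall, all 5 were higher in replicate 2 and 3 by over 1.5-fold, with sums of 41.8 and 123 TPM. Elastin (Eln) contributed 9.15 and 71.4 TPM to them, and the smooth muscle actin Acta2 18.0 and 33.0. Skeletal muscle genes summed to 21.4 and 30.0 TPM, endothelial genes to 68.83 and 68.76, macrophage genes to 209 and 228, and nerve sheath genes to 30.3 and 29.9. All 5 skeletal muscle genes and all 6 thymocyte genes also had log2 ratios above 0. So did 4 of 5 macrophage, 3 of 5 endothelial, 3 of 4 nerve sheath and 3 of 7 medullary epithelial genes. For comparison, the median log2 ratio over the 14155 genes compared above was 0.007. A ratio above 0 was therefore common among all genes and alone does not set a list apart. The part of the listed cells in the difference of Sfrp2 was not tested.

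Wnt7b, a ligand of several epithelia, was the member higher in replicate 1. It lies on chromosome 15 at 85535437 to 85582473 (minus strand). It had 94 and 60 counts, a 1.65-fold difference with an interval for counting error of 1.18 to 2.32. With spike-in totals its log2 difference (replicate 2 over replicate 1) was -0.02 in place of -0.72. In the same library 3 of 3 stratified epithelial keratins (Krt4, Krt13 and Krt15) were higher, at 80.0 and 5.85 TPM in sum. All 5 adipose genes (284 and 191 TPM in sum) and the parathyroid genes Pth (54.9 and 28.2 TPM) and Chga (20.75 and 10.98 TPM) were higher there as well. Most of the adipose sum came from Fabp4 (259 and 189 TPM, 1.35-fold). Car3 (19.3 and 1.07 TPM, 20.1-fold) and Adipoq (3.75 and 0.58 TPM, 6.20-fold) differed far more. The 4 parathyroid genes summed to 75.9 and 39.4 TPM. Medullary epithelial genes summed to 517 and 543 TPM. The part of any of these tissues in the level of Wnt7b was not tested.

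Wnt4 and Kremen1 differed less, at 1.33-fold (1.22 to 1.45 for counting error) and 1.23-fold (1.19 to 1.28), both higher in replicate 1. The 6 cortical epithelial markers summed to 1873 and 2197 TPM, with Tbata at 553.55 and 827.55, and 4 of the 6 had log2 ratios above 0. One was over 1.5-fold apart, Foxn1, the epithelial master regulator, at 18.4 and 27.4 TPM, while Ccl25 had 689 and 670 TPM. Their part in either difference was not tested. Thymocyte markers summed to 3102 and 3195 TPM. Among the receptors Fzd6 differed by 1.01-fold, Fzd10 by 1.03-fold and Lrp6 by 1.04-fold, with counting intervals that included 1.

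Ratios at low counts spread more widely. Of 13 members with a mean from 10 to under 50 counts, 4 were over 1.5-fold higher in replicate 2 and 2 in replicate 1, where 13.5% and 26.1% of all 3831 genes in that range were. Wnt11 (45 and 20 counts) and Wnt2 (40 and 22) were higher in replicate 1. Fzd9 (17 and 37 counts), Lgr6 (13 and 36), Frzb (7 and 23) and Wnt2b (11 and 24) were higher in replicate 2. For Wnt2b the counting interval of the ratio, 0.976 to 4.68, included 1, while for Frzb it was 1.30 to 8.60.

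Most detected members were read from a single annotated transcript. Of the 19, 11 had counts for 1 transcript only, 9 of them with a single annotated transcript, so their leading transcript could not differ. Of the other 8, 5 had the same leading transcript in both pups and 3 did not. The leading transcript was protein coding in both for 18. Kremen1-201 took 96.3% ± 1.16 (SD, n = 2) of Kremen1, and Lrp6-201 took 89.2% ± 3.16 of Lrp6. Fzd6 was divided over Fzd6-202 (62.5% and 81.2%) and Fzd6-201 (37.6% and 18.9%).

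The 3 members whose leading transcript differed between the pups were Wnt5b, Lgr4 and Wnt6. Lgr4-202 and Lgr4-201, which begin at the same base, took 65.3% and 33.3% in replicate 1 and 46.4% and 53.6% in replicate 2. For Wnt6 the short transcript Wnt6-202 of 920 bases, annotated as a retained intron, took 32.2% and 57.2%. By the authors' assignment the protein-coding Wnt6-201 had 0.90 and 0.92 TPM and the retained-intron transcript 0.43 and 1.23 TPM (10.38 and 32.15 counts). The difference of Wnt6 between pups is itself unresolved, since its counting interval of 0.972 to 1.90 (replicate 2 over replicate 1) included 1. For Lrp5, transcripts annotated for nonsense-mediated decay, Lrp5-203 foremost at 26.6% and 18.7%, stood beside the coding Lrp5-201 at 49.3% and 74.1%.

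**Figure D3:**
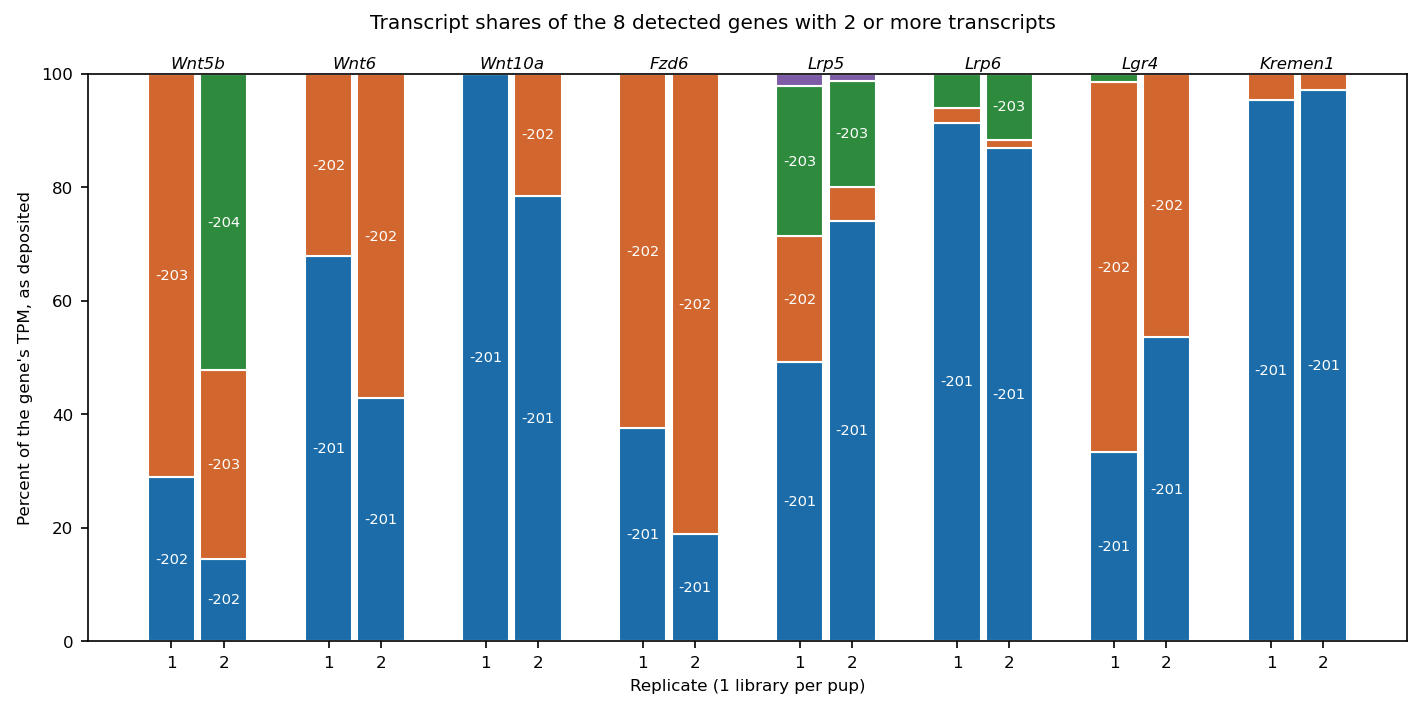
Percent of each gene's TPM that the authors assigned to each transcript, in replicates 1 and 2, for the 8 detected members with counts in 2 or more transcripts; numbers name the transcripts. Kremen1 and Lrp6 are dominated by transcript 201 in both pups, while the leading transcript of Wnt5b, Wnt6 and Lgr4 differs between them.

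Start regions of the members in the table were rich in G and C. Over windows of 300 bases around the start, the median was 66.3% for 12 windows of 10 detected members and 68.3% for 22 windows of 21 others. The 12 windows leave out 9 of the 19 detected members, among them Kremen1, Lrp6, Fzd6 and Sfrp1. Over all windows in the table it was 52.7%, and over those of protein-coding genes 57.0%. A GC box was found in 7 of the 12 and 18 of the 22 windows, a TCF and LEF core in 2 and 5, and a TATA box in 1 and 4. Of the windows of protein-coding genes 48.1% held a GC box, 16.8% a TCF and LEF core and 11.96% a TATA box, and of all windows 35.7%, 18.6% and 13.6% did.

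Most intracellular genes of the pathway were detected. Of 55 other pathway genes in 7 lists, which also hold extracellular and surface proteins, 42 were detected. The median over the 55 was 4.8 TPM. Of all protein-coding genes 57.3% were detected, and their median was 2.87 TPM. All 11 genes of the Dishevelled and destruction complex list were detected (median 13.5 TPM), among them the kinase Csnk1a1 (230 and 214 TPM), beta-catenin Ctnnb1 (136 and 143) and Gsk3b (37.6 and 31.4). The scaffold Apc had 6.85 and 5.15 TPM. Of 13 nuclear partners 12 were detected, and the exception was Pygo1 at 0.62 and 0.55 TPM. Tcf7 (891 and 1053 TPM) and Lef1 (238 and 258) stood far above Tcf7l2 (11.3 and 10.6) and Tcf7l1 (3.62 and 3.55), and also above Wnt4, the most abundant ligand.

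Ligand secretion was represented by the carrier Wls at 35.4 and 33.5 TPM, whereas the acyltransferase Porcn had 0.50 and 0.53 TPM (28 and 30 counts) and the deacylase Notum 1 and 6 counts. Receptor turnover genes were detected in 4 of 5 cases, beside 57.3% of all protein-coding genes. The ubiquitin ligases Znrf3 and Rnf43, which remove Frizzleds in the absence of R-spondin, had 8.99 and 6.13 TPM and 4.42 and 5.67 TPM. Each was therefore above all 4 R-spondins combined.

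Of 10 textbook targets of beta-catenin, 8 were detected, beside 57.3% of all protein-coding genes. Axin2, the most general of them, had 2.93 and 2.96 TPM, and Nkd1 had 1.67 and 1.87 TPM. Myc reached 157 and 167 TPM and Ccnd1 5.82 and 7.94 TPM, but both have many other regulators, and Tcf7 and Lef1 are also T-lineage genes. Notum and Sp5 (1 and 0 counts) were not detected. None of the pathway genes with a mean count of at least 50 was over 1.5-fold apart between the pups.

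**Figure D4:**
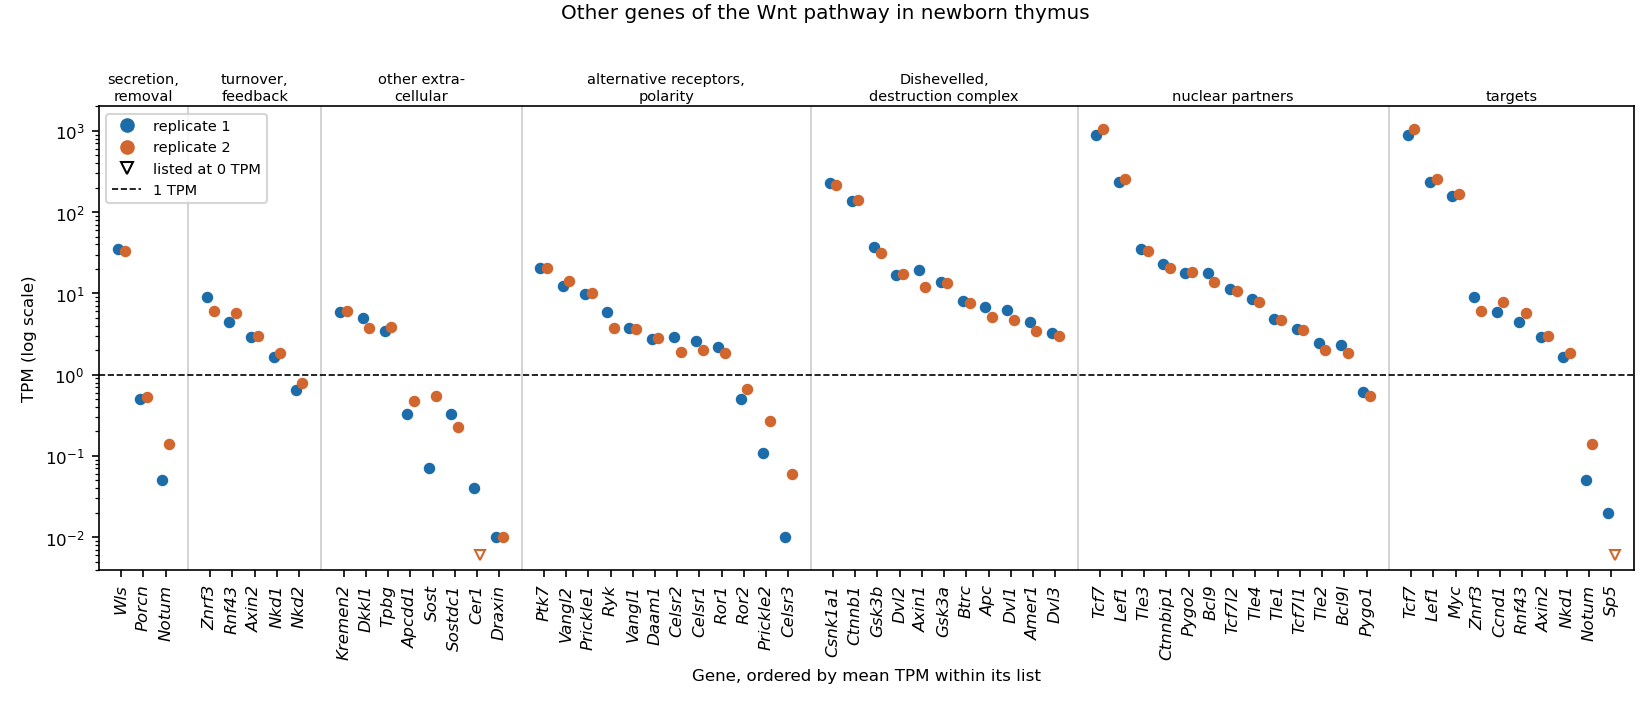
TPM (log axis) in replicates 1 and 2 of the other pathway genes in 7 lists, ordered by mean level within each list; a gene in 2 lists is drawn in both, and open triangles at the foot mark genes listed at 0. Tcf7, Lef1, Csnk1a1, Ctnnb1 and Myc lie above 100 TPM, while Porcn, Notum and Sp5 lie below 1 TPM.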

How the data were processed

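Total RNA from 2 thymus samples was sequenced, 10 ng per library per the labels. The authors deposited expected counts (estimated, without normalization), TPM with interval bounds, FPKM and the percent of a gene's TPM per transcript. The level of the deposited bounds is not stated. Per the deposited read-me texts the build is mm10 and the annotation M4. Aligner, quantifier and use of strand were not given in the sources used. For Sfrp2, Fzd5 and Wnt5a, fractional counts and those of an opposite-strand gene summed to whole numbers, so reads were shared across strands there. Of the members, 45 had whole counts (within 0.005).

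Symbols and coordinates come from GENCODE M21 (GRCm38), by identifier without version. Expected counts were rounded and scaled with TMM (edgeR 4.0.16, R 4.3.3), after filterByExpr. Log2 ratios used a prior count of 0.5, and counting intervals are exact binomial (95%). All intervals and the floor of 3 counts cover counting error only, since no molecular identifiers are recorded and reads may be copies. DESeq2 1.42.0 size factors were an alternative. Steps were tested on simulated data. Start regions span 250 bases before to 50 after each start. Tables were made in Python 3.11.15 with pandas 2.3.3 and numpy 2.4.6, intervals with scipy 1.17.1, and figures with matplotlib 3.10.9.

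The members and lists were chosen with earlier results of these data known. All members and pathway genes may be named, and of marker lists the 3 highest and those over 1.5-fold apart. Protein sequences were not used here. The comparison of TPM intervals and the joint count of Sfrp2 with Gm26771 were added after seeing the data.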

Additional observations from a re-analysis of the deposited data

How the results depend on the processing

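Detection of members moved from 19 to 5 at a minimum of 5 TPM and to 35 with a minimum of 10 expected counts. Over the detected members alone the medians were 2.515 TPM for Wnt ligands, 1.90 for Frizzleds and 5.45 for inhibitors. In FPKM, over all members of each role, the medians were 1.18 for Frizzleds and 0.27 for inhibitors. Over all inhibitors the median was 0.40 TPM without replicate 1 and 0.41 TPM without replicate 2. With summed expected counts the receptor to ligand ratio was 1.21 and the inhibitor to ligand ratio 3.45, and without the highest ligand and inhibitor the latter was 1.05.

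The number of members higher in replicate 2 (1) became 13 with spike-in totals, 2 with TPM ratios (Sfrp2 and Wnt6), 5 and 8 with minimum counts of 10 and none (13.2% of 38 and 16.3% of 49, against 3.75% and 7.62% of all genes), and 0 at over 2-fold. The number higher in replicate 1 (1) became 0 with spike-in totals, 3 and 8 with minimum counts of 10 and none (7.89% and 16.3%, against 8.43% and 11.1% of all genes), 0 with a minimum of 200, 0 at over 2-fold and 3 by intervals that did not overlap. Spike-in totals (659 and 427 counts) shifted all genes, from a median log2 difference of 0.01 to one of 0.71, so every direction between pups is relative to the bulk of genes. Detected pathway genes were 24 at 5 TPM. The cause of these moves was not tested, beyond the fewer or more genes that a threshold admits. Under the other alternatives these counts stayed within 1.5 times and the values within 1 SD of those reported. For the ratios without 1 replicate this was fixed in advance, since each of 2 values lies within 1 SD of their mean. No paired analysis was possible because there is 1 group.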

Other observations

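Most listed genes of the branch of Wnt signalling that does not use beta-catenin were measured at levels above most ligands. Of 12 alternative receptors and polarity genes, 9 were detected, at a median of 2.58 TPM. Of all protein-coding genes 57.3% were detected, and their median was 2.87 TPM. Prickle2 (0.11 and 0.27 TPM) and Celsr3 (0.01 and 0.06 TPM) were the lowest of the 12. The receptor-like kinase Ptk7 led with 20.5 and 20.4 TPM in replicates 1 and 2, followed by the polarity genes Vangl2 (12.5 and 14.1 TPM) and Prickle1 (9.75 and 9.97 TPM). The Wnt receptor Ryk had 5.87 and 3.78 TPM. Ror1 had 2.16 and 1.85 TPM, while Ror2, known as a receptor of Wnt5a, had 0.50 and 0.66 TPM.

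Among 8 other extracellular modulators 3 were detected, beside 57.3% of all protein-coding genes. Kremen2, the paralogue of Kremen1, had 5.97 and 6.07 TPM from 355 and 389.62 counts, the Dkk-like gene Dkkl1 had 4.98 and 3.71 TPM, and Tpbg had 3.49 and 3.82 TPM. Of the 8, 4 had log2 ratios (replicate 2 over replicate 1) above 0.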
